A study of Homo sapiens with 39 samples.

Results

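The comparison described here set HCT116 cells producing isoform 12 of hepatocyte nuclear factor 4 alpha (HNF4A) against their parental cells. Its members are the 3 RNA-seq libraries titled for the isoform 12 GFP fusion and the 3 libraries of the empty control, chosen by title from 39 libraries in 13 groups. HCT116 is an established human colorectal cancer line. Parental cells were its Flp-In T-REx derivative, without any HNF4A construct, grown beforehand with 5 µg/ml blasticidin and 100 µg/ml zeocin. The isoform 12 group carried the isoform fused to GFP as a stable construct switched on by doxycycline, and was grown beforehand with 5 µg/ml blasticidin and 100 µg/ml hygromycin B. Both groups received 2.5 µg/ml doxycycline for 48 h, and all selection drugs were withdrawn when it was added. The isoform 12 group is 1 line, and no group produced GFP alone. Effects of the isoform, of GFP, of the earlier selection drug and of deriving the line therefore cannot be told apart. The labels do not say that the 3 libraries of a group came from separate cultures. P-values therefore measure only the spread between libraries of a group, which may be technical and is estimated over all 13 groups.

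HNF4A is a nuclear receptor that binds DNA as a dimer and switches on genes of lipid, bile acid and drug metabolism in the liver and of the absorptive brush border in the gut. Alternative promoters and splicing give isoforms that differ at the N-terminal end, where 1 transactivation domain lies, and at the C-terminal end, where a regulatory domain lies. In the standard nomenclature, which is not part of the labels, isoforms 10 to 12 come from the P2 promoter and share an N-terminal form. Isoform 12 has the shortened C-terminal end that isoform 9, with another P2 N-terminal form, also has. The question was which genes differ in level once this P2 form with a short C-terminal end is produced in a colon cancer cell.

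Levels are the authors' TPM, transcript abundance scaled to the same total in every library, so read depth per library is unknown and no counting error could be given. The 6 libraries had 28342 to 30553 genes above 0 TPM. The lowest correlation between libraries of a group was 0.991 across genes on the log2(TPM + 1) scale, and the highest between the groups was 0.989. A library of another line, replicate 1 of isoform 3, stood apart: its HNF4A sum was 407 TPM, while the other two had 833 and 772 TPM. It enters the estimate of the spread and the mean TPM over all 39 libraries that decided which genes were tested. With the same genes tested and the isoform 3 libraries left out of the fit, 86 genes in place of 85 were called. Where this library stood apart in other genes too, it widened the SE given below. SELENOP had 33.3 TPM in it and 76.9 and 83.3 TPM in replicates 2 and 3, and SPARC and DHRS2 also stood apart.

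HNF4A mRNA was read first, since it checks the labels. Summed over the 12 HNF4A rows of the tables the 3 parental libraries had 31.9, 30.8 and 31.7 TPM, and the 3 isoform 12 libraries had 640.0, 669.6 and 723.6 TPM. The means were 31.5 TPM ± 0.589 and 677.7 TPM ± 42.4 (SD, n = 3 each), and the groups did not overlap. In the isoform 12 libraries the row of isoform 12 held 637.8, 667.6 and 721.5 TPM of these sums. The same row held most of the parental sums too, at 27.8, 27.3 and 28.7 TPM in cells without a construct, so that row by itself does not mark the construct and the check rests on the level. In the libraries labelled isoform 4 the HNF4A signal lay in the row of isoform 5 (820.4 to 869.5 TPM, against 1.11 to 2.70 TPM in the row of isoform 4), and in those labelled isoform 5 in the row of isoform 4 (805.8 to 880.4 TPM, against 0.132 to 0.244 TPM). These 6 libraries go against their labels, and both groups are named below as labelled. In the comparison with parental cells they enter only the estimate of the spread and the mean TPM that decided which genes were tested. The other lines had group means from 613.5 to 1071 TPM, so isoform 12 lay in the lower part of that range. HNF4A was kept out of the fit across genes.

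The filter (a mean TPM of 1 or more across all 39 libraries) left 15002 genes, of which 85 were called different between isoform 12 and parental cells (0.567%). A call needed a Benjamini-Hochberg adjusted p under 0.05 in limma and a difference of at least 1 on the log2(TPM + 1) scale, which understates the change of genes at low TPM. In isoform 12, 65 genes were called higher (0.433%) and 20 lower (0.133%). Counting rows with repeated values once gave 61 higher and 20 lower. Protein-coding genes made up 46 of the higher and 15 of the lower genes. With no minimum difference, 1187 genes passed the test as higher (7.91%) and 998 as lower (6.65%). The median difference over all genes tested was -0.00265 on the log2 scale, and the 1st and 99th percentiles were -0.66 and 0.77. The 3 values of 1 group lay wholly above those of the other for 59 of the 65 higher genes and 19 of the 20 lower genes, against 15.7% and 17.6% of all genes tested in these directions. The calls were made on these same libraries, so this separation is no further support for them. In 14 of the higher genes the parental mean was under 1 TPM, and in 5 of the lower genes the isoform 12 mean was. The filter admits genes near 0 in a group through libraries where they are higher, and these have little room to move the other way. The split by direction may partly follow from this.

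**Figure D1:**
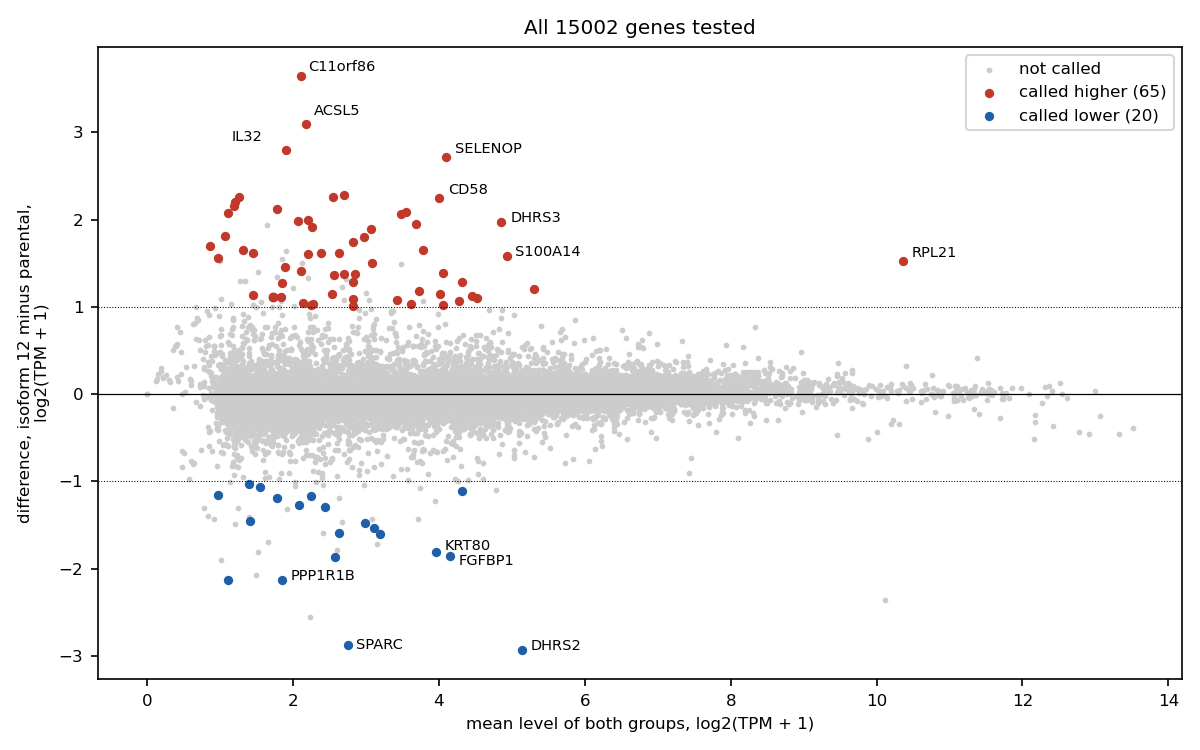
Difference between isoform 12 and parental cells (vertical axis, log2(TPM + 1)) against the mean level of both groups (horizontal axis, log2(TPM + 1)) for the 15002 genes tested; each point is 1 gene and dotted lines mark the minimum difference of 1. The 65 genes called higher reach 3.65 (C11orf86) and the 20 called lower reach -2.93 (DHRS2), while most genes lie close to 0.

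The RefSeq promoter table (GRCh38.p14, 250 bases before to 50 after each start site) held 64 promoters for 42 of the higher genes and 14 promoters for 11 of the lower genes. These were searched on both strands for the letters CAAAGTCCA and CAAAGGTCA. These cover 1 half-site and the bases before it of the direct repeat to which HNF4A binds in many of its targets, and the other half-site was not searched for. Either occurred in 0.792% of all 35116 promoters in the table, in 2 of the 64 promoters of higher genes (3.13%) and in none of the 14 of lower genes. The matching genes were APOBEC1, the cytidine deaminase that edits apolipoprotein B mRNA in the gut, and CD68, a glycoprotein of lysosomes. Their matches are shown since these are the called genes whose promoter windows hold these letters, printed in capitals. The APOBEC1 stretch is the 100 bases before the start site at chr12:7665909-7666008, minus strand, and its match begins 28 bases before the start. The CD68 stretch is the 30 bases around a match on the opposite strand that begins 15 bases into the transcript, at chr17:7579642-7579671, plus strand.
APOBEC1: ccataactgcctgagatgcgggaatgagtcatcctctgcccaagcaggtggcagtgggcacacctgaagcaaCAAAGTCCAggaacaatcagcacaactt
CD68: acagcctagcTGGACTTTGggtgaggcggt
A match describes letters and not binding, and an absent match says only that these letters are not in that window. APOBEC1 was at 0, 0.121 and 0 TPM in parental cells and 2.36, 3.65 and 4.36 TPM in isoform 12. The groups were apart by 2.07 ± 0.187 (SE) on the log2 scale, at an adjusted p of 1.93e-09. CD68 had 4.01, 4.44 and 3.10 TPM in parental cells against 9.22, 9.84 and 8.73 TPM, a rise of 1.09 ± 0.11 at an adjusted p of 1.84e-08. In the 6 fits that each left out 1 of the libraries APOBEC1 kept its call, and CD68 fell just under the minimum without parental replicate 3 (0.975).

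On the log2(TPM + 1) scale the largest rise belonged to C11orf86, an open reading frame on chromosome 11 (66975277 to 66977004, GRCh38), which had 0.300, 0.139 and 0.213 TPM in parental cells and 16.3, 13.1 and 13.45 TPM in isoform 12. All 3 isoform 12 values lay far above the parental ones, with a ratio of means of 65.7. The difference was 3.65 ± 0.143 (SE), at an adjusted p of 1.02e-17. ACSL5, which joins long fatty acids to coenzyme A (chromosome 10, 112374018 to 112428380), was at 0.526, 0.640 and 0.485 TPM in parental cells and 11.8, 12.1 and 12.8 TPM in isoform 12. The groups were tight and apart, by 3.09 ± 0.11 at an adjusted p of 1.18e-18. CIDEC, a protein that coats and fuses lipid droplets, stood at 0.0344, 0.125 and 0.0643 TPM and rose to 4.27, 3.45 and 3.69 TPM. Its difference was 2.16 ± 0.129, at an adjusted p of 2.49e-13. HKDC1, a hexokinase relative, had at most 0.0927 TPM in parental cells and 3.61 to 4.43 TPM in isoform 12, a rise of 2.20 ± 0.129. SULT2B1, which adds sulfate to cholesterol and other sterols, rose from 5.53 TPM ± 0.625 to 24.2 TPM ± 1.19 (SD, n = 3 each), by 1.95 ± 0.150 (SE). DHRS3, which reduces retinal to retinol, rose from 13.7 TPM ± 2.16 to 56.3 TPM ± 4.32, by 1.97 ± 0.147. Because the libraries are bulk RNA, a change in the share of cells that use a gene and a change in RNA per cell cannot be told apart here or below.

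The list of lipid droplet and fatty acid genes had 20 of 26 members tested. Like all lists below it was chosen with earlier results of these data known, so list counts describe and do not test. ACSL5 and CIDEC were called higher and none lower (all genes, 0.433% and 0.133%). Both had parental means under 1 TPM and passed the filter through lines where they were higher. In all, 6 rose and 1 fell with no minimum difference, against 7.91% and 6.65% of all genes tested, and the median of the tested members was 0.07. SLC27A4, a fatty acid transporter, rose from 40.1 TPM ± 0.455 to 62.0 TPM ± 1.94, by 0.62 ± 0.0559 at an adjusted p of 2.08e-09. ACSL4, a relative of ACSL5 with a preference for arachidonate, was already at 38.4 TPM ± 2.18 and reached 46.1 TPM ± 4.93, a rise of 0.25. DGAT1, which makes triglyceride, fell by 0.23 from 42.6 to 36.2 TPM. Of the 17 tested genes of cholesterol synthesis and uptake none was called (0.567% of all genes were). With no minimum difference 4 rose: FDFT1, FDPS, MVK and STARD4, by 0.18 to 0.31. Their list had a median of 0.134 against -0.003 for all genes. Phase I and II drug metabolism had 19 of 37 members tested, with SULT2B1 and CYP1A1 called higher and none lower (all genes, 0.433% and 0.133%). CYP1A1, the aryl hydrocarbon oxidase, went from 2.34, 2.69 and 2.01 TPM to 5.34, 7.36 and 5.06 TPM, a difference of 1.04 ± 0.151 that fell under the minimum without isoform 12 replicate 2 (0.89) or without parental replicate 3 (0.96). With no minimum difference, 5 members of that list rose and 3 fell, among the latter CYP1B1 by 0.44 and GSTP1 by 0.16.

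**Figure D2:**
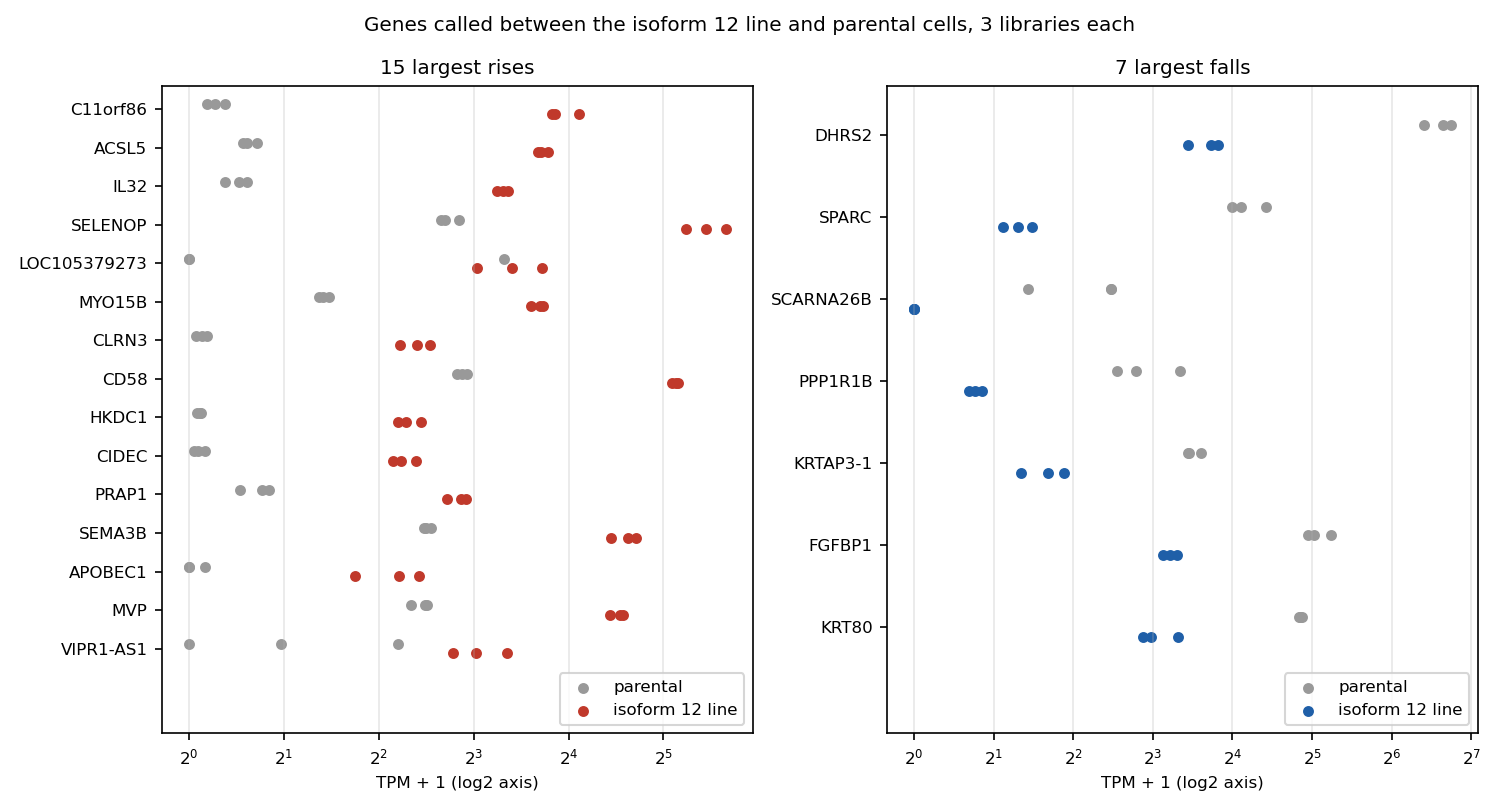
TPM + 1 in each of the 6 libraries (log2 axis) for the 15 genes called higher with the largest rise (left) and the 7 called lower with the largest fall (right); each point is 1 library. Parental (grey) and isoform 12 (coloured) points lie apart for all genes shown except LOC105379273, whose parental value of 9.00 TPM lies among the isoform 12 values.

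SELENOP, PRAP1, MVP and ABCG2 were also called higher. SELENOP, which carries selenium in plasma (chromosome 5, 42799880 to 42887392), was at 5.29, 5.48 and 6.17 TPM in parental cells and 36.7, 42.6 and 49.4 TPM in isoform 12. Its difference was 2.72 ± 0.197 at an adjusted p of 1.90e-11. It overlaps CCDC152 on the other strand. The library kit keeps strand per the labels, but whether the quantification used strand is not known here. PRAP1, a secreted protein of the gut lumen, went from 0.709, 0.448 and 0.788 TPM to 5.61, 6.57 and 6.30 TPM, by 2.12 ± 0.139. MVP, the major protein of vault particles, rose from 4.47 TPM ± 0.340 to 21.9 TPM ± 1.14, by 2.07 ± 0.125. ABCG2, an exporter of drugs and urate at the apical membrane, had 2.10, 2.19 and 1.85 TPM in parental cells and 4.70, 5.73 and 5.47 TPM in isoform 12, a difference of 1.05 ± 0.109 just over the minimum. Its difference was 0.996 without isoform 12 replicate 2 and 0.999 without parental replicate 3, and either ends the call.

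Several brush border genes rose, most by less than 1 on the log2 scale. VIL1 encodes villin, which bundles actin in microvilli, and had 0.482, 0.683 and 0.497 TPM in parental cells and 3.57, 4.01 and 3.73 TPM in isoform 12. The groups did not overlap, and the difference of 1.62 ± 0.165 had an adjusted p of 2.43e-08. Of 25 listed genes of the brush border and microvillus 16 were tested. VIL1, with a parental mean under 1 TPM, was called higher (0.433% of all genes were), and with no minimum difference 8 rose and none fell, against 7.91% and 6.65% of all genes. USH1C, the harmonin scaffold of the links between microvillus tips, went from 6.21, 6.63 and 6.46 TPM to 13.7, 12.5 and 13.95 TPM, by 0.95 ± 0.126. MISP, an actin-bundling protein, was at 10.4, 10.1 and 11.1 TPM against 20.1, 21.0 and 21.3 TPM, by 0.92 ± 0.0875. SLC9A3R1, a scaffold under the apical membrane, rose from 88.3 TPM ± 1.87 to 135.8 TPM ± 4.48, by 0.62, and EPS8, an actin-capping protein, from 22.7 TPM ± 0.580 to 34.99 TPM ± 4.22, by 0.60. DPP4, an apical peptidase, rose by 0.46 from 4.95 to 7.17 TPM. The list median was 0.166. MYO15B, an unconventional myosin that was not on the list, rose from 1.68 TPM ± 0.0923 to 11.8 TPM ± 0.588, by 2.26 ± 0.158. CLRN3, a clarin family membrane protein, rose from 0.0987 TPM ± 0.0426 to 4.26 TPM ± 0.564, by 2.25 ± 0.192.

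Most classical HNF4A targets of liver and gut stayed under the level needed for a test. Of 21 listed targets only 5 reached the level of the filter, and 3 of these had parental means under 1 TPM. These 3, VIL1, LGALS4 and APOA1, passed through lines where they were higher and had little room to fall, so the count of targets called carries no weight. VIL1 and LGALS4 were called higher, and APOA1, an apolipoprotein of high-density lipoprotein, was at 0.274 TPM in parental cells and 0.488 TPM in isoform 12 (adjusted p = 0.228). LGALS4, an intestinal galectin, was at 0.180, 0.0739 and 0.158 TPM in parental cells and 2.11, 2.20 and 2.82 TPM in isoform 12, a rise of 1.56 ± 0.169 at an adjusted p of 5.76e-08. The markers of differentiated enterocytes (SI, LCT, ALPI, RBP2, FABP1 and APOA4) were all under 1 TPM in all 6 libraries, and so were 6 markers of hepatocytes and 4 of goblet and enteroendocrine cells. The 9 markers of colon epithelium were present and summed to 3345 to 3491 TPM in parental cells and 2870 to 2971 TPM in isoform 12. Among 24 listed transcription factors of gut and liver 12 were tested and none was called (0.567% of all genes were). HNF4G, the paralog of HNF4A, rose by 0.41 from 3.61 to 5.13 TPM, and ELF3, an epithelial ETS factor, fell by 0.60 from 22.3 to 14.3 TPM.

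EREG and AREG, ligands of the EGF receptor that lie 56383 bases apart on chromosome 4, both rose. EREG had 6.76, 7.08 and 6.51 TPM in parental cells and 23.0, 24.8 and 22.6 TPM in isoform 12, a difference of 1.65 ± 0.0996 at an adjusted p of 2.49e-13. AREG had 26.1, 26.04 and 22.6 TPM against 66.7, 57.6 and 51.8 TPM, a difference of 1.20 ± 0.0983. Neither gene's groups overlapped. SEMA3B, a secreted semaphorin, was at 4.57, 4.65 and 4.85 TPM in parental cells and 25.2, 23.7 and 20.7 TPM in isoform 12, by 2.08 ± 0.157. SEMA3C, another of that class, rose by 1.07 ± 0.134 from 6.40 to 14.6 TPM. Of 16 tested semaphorins and receptors these 2 were called higher and none lower (all genes, 0.433% and 0.133%). With no minimum difference 3 rose, with PLXNB1 as the third, and PLXNB2 and PLXND1 fell by 0.27 and 0.19 (all genes, 7.91% and 6.65%). The median of that list was -0.108. VIPR1, the receptor of vasoactive intestinal peptide, rose from 3.33 TPM ± 0.282 to 15.1 TPM ± 1.54, by 1.89 ± 0.159. PDGFC, a platelet-derived growth factor, rose by 1.02 ± 0.116 from 10.7 to 22.7 TPM. It fell just under the minimum without isoform 12 replicate 2 (0.967), parental replicate 1 (0.991) or parental replicate 3 (0.991).

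Immune-related genes moved in both directions. IL32, a cytokine (chromosome 16, 3065297 to 3082192), went from 0.446, 0.524 and 0.304 TPM in parental cells to 9.26, 8.47 and 8.94 TPM in isoform 12. The groups lay far apart, with a difference of 2.80 ± 0.154 at an adjusted p of 5.15e-14. CD58, the ligand through which T cells bind by CD2, was at 6.11, 6.60 and 6.34 TPM against 33.1, 34.1 and 34.6 TPM, a difference of 2.25 ± 0.130 at an adjusted p of 1.48e-13. IRAK2, a kinase below the interleukin 1 receptor, rose by 1.29 ± 0.127 from 3.53 to 10.1 TPM. ICAM1, an adhesion ligand for leukocytes, fell from 5.89, 6.68 and 5.80 TPM to 2.27, 2.20 and 2.01 TPM, by 1.17 ± 0.171 on the log2 scale. In the list of NF-kB and inflammatory genes 11 of 23 were tested. Passing the test alone, IL32 rose and 6 fell, ICAM1 and TNFAIP3 (by 0.57) among them, against 7.91% and 6.65% of all genes. The list median was -0.219. IL32 was the only tested member with a parental mean under 1 TPM, and it had little room to fall. It passed the filter through lines where it was higher. Of 19 tested interferon response genes none was called (0.567% of all genes were). OAS3 fell by 0.76 from 29.2 TPM ± 2.04 to 16.8 TPM ± 1.11, IFI6 and IFIT3 fell by 0.46 and 0.40, and ISG15 rose by 0.18. Of 13 tested genes of class I antigen presentation B2M rose by 0.54 from 236.8 to 345.4 TPM, and NLRC5, a transactivator of these genes, and ERAP1, a peptide-trimming protease, were among those that fell, by 0.37 and 0.42. Leukocyte markers summed to 4.93 to 6.35 TPM in parental cells and 10.7 to 11.3 TPM in isoform 12. That sum contains CD68, and PTPRC, CD3E, CD14 and LYZ were under 1 TPM in all 6 libraries.

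The neighbouring genes TRIM10 and TRIM15, ubiquitin ligase family members 2272 bases apart on chromosome 6, both rose. TRIM10 was at 1.40, 1.46 and 1.52 TPM in parental cells and 8.06, 8.30 and 8.54 TPM in isoform 12, by 1.92 ± 0.124. TRIM15 was at 3.36, 2.88 and 3.38 TPM against 14.4, 12.9 and 13.5 TPM, by 1.79 ± 0.122. S100A14, a calcium-binding protein of epithelia, rose from 16.6 TPM ± 1.17 to 51.6 TPM ± 4.10, by 1.58 ± 0.11. RERG, a small GTPase that slows growth, rose from 1.10 TPM ± 0.105 to 7.37 TPM ± 1.13, by 1.99 ± 0.0980 at an adjusted p of 4.03e-15. IGF2BP3, an mRNA-binding protein of fetal tissue and tumours, rose by 1.61 ± 0.0869 from 1.63 to 7.08 TPM.

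Genes of the matrix, caveolae and keratins were among the leading falls. DHRS2, a mitochondrial reductase of dicarbonyls (chromosome 14, 23630115 to 23645639), was at 83.9, 99.3 and 106.1 TPM in parental cells and 13.1, 9.90 and 12.3 TPM in isoform 12. The difference was -2.93 ± 0.407 (SE) at an adjusted p of 4.47e-06, and parental cells had 8.20 times the isoform 12 mean. SPARC, a matrix glycoprotein (chromosome 5, 151661096 to 151687165), went from 14.97, 16.3 and 20.4 TPM to 1.17, 1.47 and 1.79 TPM. Its difference was -2.87 ± 0.338 at an adjusted p of 3.01e-07. PPP1R1B, a phosphatase inhibitor also known as DARPP-32, went from 4.86, 5.88 and 9.15 TPM to 0.609, 0.703 and 0.802 TPM, a difference of -2.13 ± 0.229. FGFBP1, which releases fibroblast growth factors from the matrix, went from 31.5, 36.9 and 29.96 TPM to 8.89, 8.27 and 7.72 TPM, a difference of -1.86 ± 0.219. None of these 4 genes had overlapping groups. CITED4, a transcriptional co-activator, fell by 1.53 ± 0.225 from 13.7 to 4.09 TPM. IGFBP6, which binds insulin-like growth factor 2, fell by 1.11 ± 0.145 from 28.2 to 12.5 TPM.

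In the matricellular and mesenchymal list 13 genes were tested, SPARC and CAVIN2 were called lower and none higher (all genes, 0.133% and 0.433%). CAVIN2, a caveola coat protein, fell from 9.66, 8.70 and 10.8 TPM to 2.11, 2.51 and 3.09 TPM, by 1.59 ± 0.170. Without the minimum, 7 of the 13 fell and none rose, against 6.65% and 7.91% of all genes, and the list median was -0.321. THBS1, a thrombospondin, fell by 0.79 from 9.04 TPM ± 0.503 to 4.80 TPM ± 0.384. CAV1, CAV2 and CAVIN1, the abundant caveola proteins, fell by 0.36, 0.34 and 0.18. Fibroblast markers summed to 13.6 to 15.5 TPM in parental cells and 10.9 to 12.8 TPM in isoform 12, with COL1A2, COL3A1, DCN and LUM under 1 TPM in all 6 libraries.

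KRT80 and KRT7, type II keratins 40520 bases apart on chromosome 12, both fell. KRT80 was at 27.6, 28.3 and 27.8 TPM in parental cells and 8.92, 6.84 and 6.31 TPM in isoform 12, a difference of -1.80 ± 0.154 at an adjusted p of 6.41e-10. KRT7 was at 5.15, 5.94 and 5.70 TPM against 1.86, 1.62 and 1.72 TPM, a difference of -1.27 ± 0.119. The abundant simple keratins fell less on this scale, KRT8 by 0.35 from 1326 TPM ± 27.4 to 1043 TPM ± 16.4 and KRT18 by 0.47 from 827.7 TPM ± 34.0 to 597.2 TPM ± 15.4. KRTAP3-1, a keratin-associated protein, had 11.1, 9.90 and 9.99 TPM in parental cells and 2.69, 1.54 and 2.22 TPM in isoform 12, a difference of -1.86 ± 0.198. Of 21 tested junction and keratin genes KRT80 and KRT7 were called lower and none higher (all genes, 0.133% and 0.433%). With no minimum difference 7 fell and 2 rose, against 6.65% and 7.91% of all genes, and the median was -0.052. The tight junction genes moved both ways: CGN fell by 0.45 from 13.3 to 9.44 TPM, CLDN3 by 0.29, and TJP3 rose by 0.39 from 14.1 to 18.9 TPM.

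Lists of growth and stress genes held no called member, where 0.567% of all genes were called, and their counts with no minimum difference stand against 7.91% higher and 6.65% lower over all genes. All 25 mitosis genes were tested, none passed the test and their median was -0.081. Of 25 genes of S phase 4 fell with no minimum difference, MCM2 by 0.27 and MCM5 by 0.22 among them, none rose, and the median was -0.102. Of 24 tested p53 targets 4 rose and 1 fell. CDKN1A, the p21 inhibitor of cyclin-dependent kinases, rose by 0.30 from 103.9 TPM ± 3.29 to 128.1 TPM ± 4.00. None of 20 genes of the ATF4 pathway and none of 16 of the unfolded protein response passed the test, with medians of 0.018 and -0.015. Of 14 tested Wnt/beta-catenin targets DKK1, a secreted Wnt antagonist, rose by 0.49 from 419.8 to 588.4 TPM, and 4 fell, NOTUM by 0.65 from 16.0 to 9.86 TPM.

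**Figure D3:**
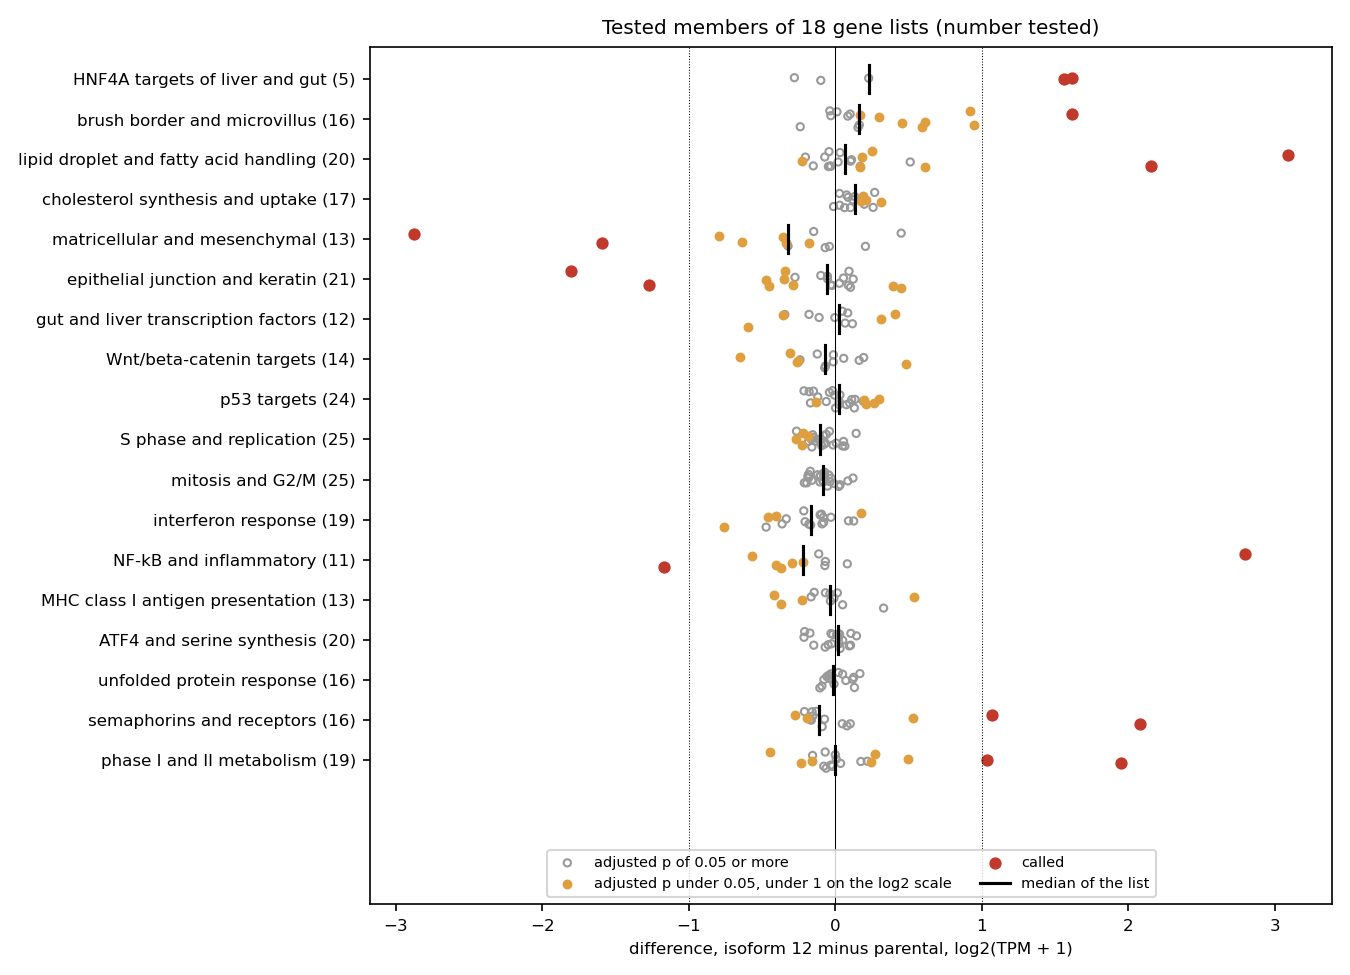
Difference between isoform 12 and parental cells (log2(TPM + 1)) for the tested members of 18 gene lists, 1 row per list; each point is 1 gene, black bars are list medians and dotted lines mark the minimum difference. The matricellular list has a median of -0.321, the HNF4A target row has only 5 points, 3 of them genes under 1 TPM in parental cells, and called members (red) occur in 8 of the 18 lists.

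Several called rows have a copy or repeated values, depend on single libraries or were listed at 0 TPM, and are given apart. RPL21, a ribosomal protein gene, had 821.4, 905.6 and 592.6 TPM in parental cells and 2723, 1604 and 2385 TPM in isoform 12, a difference of 1.52 ± 0.393 that lost its call without parental replicate 3 (adjusted p = 0.0505). Its pseudogene copy RPL21P16 had 1893, 1887 and 2243 TPM in parental cells and 95.5, 1236 and 499.5 TPM in isoform 12. The sum of both rows was 2714, 2793 and 2836 TPM in parental cells and 2819, 2840 and 2884 TPM in isoform 12, with means of 2781 TPM ± 61.6 and 2848 TPM ± 33.3. How reads were shared between the copies was not tested, and the rise of the RPL21 row is uncertain. The 5 rows of U1 RNA genes hold identical values and were called on a difference of 1.12 with overlapping groups, which fell to 0.67 without isoform 12 replicate 2 and to 0.61 without parental replicate 2. VIPR1-AS1, antisense to VIPR1 within its gene body, was at 0.961, 3.59 and 0 TPM against 7.12, 5.90 and 9.18 TPM and kept its call only without isoform 12 replicate 2 or parental replicate 2 among the 6 fits without 1 library. LOC105379273 was listed at 9.00, 0 and 0 TPM in parental cells and at 7.18, 9.57 and 12.1 TPM in isoform 12, and kept its call only without parental replicate 1. SCARNA26B, a small Cajal body RNA, was at 4.58, 4.54 and 1.71 TPM in parental cells and was listed at 0 in 2 isoform 12 libraries and close to it in the other, and kept its call only without parental replicate 3. LINC02313 was listed at 0 in all parental libraries, while isoform 12 had 2.02, 3.10 and 1.77 TPM. Of the 85 called rows, 65 were called in all 6 fits that left out 1 library, 49 higher and 16 lower.

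The threshold passed through a continuous range of differences. CCDC68 (1.01), PDGFC (1.02), LOC100507065 (1.03) and BTBD11 (-1.03) lay just inside, and LOC102724507 (0.999), LOC105373191 (0.993), GPRC5A (-0.992) and BAAT (0.986) just outside. Among those just inside, CCDC68 fell under the minimum without isoform 12 replicate 3 (0.963) or parental replicate 2 (0.982), and BTBD11 without isoform 12 replicate 1 (-0.997) or replicate 2 (-0.999). LOC100507065 did so without isoform 12 replicate 2 (0.925), parental replicate 2 (0.967) or parental replicate 3 (0.963). In the authors' deposited table for isoform 12, 72 of the 85 rows moved in the same direction with an adjusted p below 0.05, and 13 had none. At an adjusted p below 0.05 and a log2 fold change of at least 1 in size, the authors' deposited table held 55 rows higher and 16 lower. HNF4A rows were not left out of that count. The authors' log2 fold changes are not differences of log2(TPM + 1), so a minimum of 1 is not the same threshold. Log2 fold changes in the authors' deposited table were 3.21 for C11orf86, 3.51 for ACSL5, 2.32 for IL32 and 2.57 for SELENOP, and -2.84 for SPARC and -2.17 for DHRS2.

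The isoform 12 line was next set directly against the lines of isoforms 10 and 11, which have the same N-terminal form, and of isoform 9, which has the same short C-terminal end. All 3 comparisons share the isoform 12 libraries, and each line is 1 line, so isoform and line cannot be told apart. Against isoform 10, 80 genes were called (0.533%), 17 higher in isoform 12 (0.113%) and 63 lower (0.42%). Against isoform 11, 148 were called (0.987%), 78 higher (0.52%) and 70 lower (0.467%). Against isoform 9, 81 were called (0.54%), 67 higher (0.447%) and 14 lower (0.0933%). Genes near 0 TPM in a compared line could pass the filter through other libraries and had little room to move the other way. The splits by direction may partly follow from this. With median-of-ratios scaling the comparison with isoform 11 gave 67 higher and 84 lower. Lower calls were also the more numerous with a filter at 5 TPM (43 higher, 48 lower), without isoform 12 replicate 3 (69 and 71) and without isoform 11 replicate 3 (68 and 77), so the split against isoform 11 has no stable majority.

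Among the leading rises some genes were lower in isoform 12 than in isoforms 10 and 11. IL32 was at 8.89 TPM ± 0.397 in isoform 12, 73.4 TPM ± 1.93 in isoform 10 and 70.9 TPM ± 3.54 in isoform 11 (SD, n = 3 each). The differences were -2.91 ± 0.154 and -2.86 ± 0.154 (SE), with adjusted p of 1.45e-14 and 8.77e-15. Isoform 9 had 10.3 TPM ± 0.167 of IL32, a difference of -0.19 ± 0.154 that did not pass the test (adjusted p = 0.461). ACSL5 was at 12.2 TPM in isoform 12, 58.1 TPM ± 3.62 in isoform 10, 53.2 TPM ± 1.82 in isoform 11 and 12.2 TPM ± 0.901 in isoform 9. Its differences were -2.16 and -2.03 from isoforms 10 and 11, both called, and 0.01 ± 0.11 from isoform 9. C11orf86 was at 14.3 TPM in isoform 12, 63.9 TPM ± 1.15 in isoform 10, 57.3 TPM ± 4.32 in isoform 11 and 16.5 TPM ± 1.01 in isoform 9. It was called lower than in isoforms 10 and 11, by 2.09 and 1.93 on the log2 scale, and its difference from isoform 9 was -0.20 ± 0.143. CIDEC and APOBEC1 were also called lower than in isoforms 10 and 11, with isoform 12 means of 3.80 and 3.46 TPM against 14.7 and 13.3 TPM in isoform 10 and 15.1 and 11.6 TPM in isoform 11. S100A14 was at 51.6 TPM in isoform 12, 131.2 TPM in isoform 10, 226.3 TPM in isoform 11 and 92.2 TPM in isoform 9, and was called lower than in isoforms 10 and 11. It was lower than in isoform 9 by 0.83 on the log2 scale (adjusted p = 1.45e-06) and CIDEC by 0.54 (adjusted p = 0.0030), under the minimum for a call, while APOBEC1 differed from isoform 9 by -0.45 (adjusted p = 0.108).

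Other rises did not differ by a call between these lines. SELENOP was at 42.9 TPM ± 6.39 in isoform 12, 47.7 TPM ± 2.54 in isoform 10, 31.2 TPM ± 2.77 in isoform 11 and 33.1 TPM ± 9.16 in isoform 9. Its differences were -0.16, 0.44 and 0.39, each ± 0.197 (SE, widened by isoform 3 replicate 1), and none passed the test. CD58 differed by -0.19, 0.02 and 0.31, each ± 0.130, from levels of 38.9, 33.4 and 27.1 TPM in isoforms 10, 11 and 9, and none of these passed. EREG was at 23.5 TPM in isoform 12, 21.3 TPM in isoform 10, 23.0 TPM in isoform 11 and 19.3 TPM in isoform 9, with differences of 0.14, 0.03 and 0.27, each ± 0.0996. MVP was at 21.9 TPM in isoform 12 and at 20.2, 17.4 and 11.8 TPM in isoforms 10, 11 and 9. Its difference from isoform 9, 0.85 ± 0.125, passed the test without reaching the minimum. A difference that missed the test does not show equal levels.

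CYP17A1, HPD, ANPEP, RBP2 and CYP11A1 were called lower in isoform 12 than in both isoforms 10 and 11, and HPD also than in isoform 9. CYP17A1, a steroid hydroxylase, was at 0.522, 0.600 and 0.770 TPM in isoform 12 and 11.6, 9.38 and 12.9 TPM in isoform 10, a difference of -2.91 ± 0.171. HPD, an enzyme of tyrosine breakdown, was at 1.02, 0.778 and 1.16 TPM in isoform 12, 10.2, 10.6 and 11.9 TPM in isoform 10 and 9.28, 10.4 and 8.71 TPM in isoform 11. It was also lower than in isoform 9, at 3.06, 3.64 and 4.32 TPM, by 1.23 ± 0.11 on the log2 scale. ANPEP, a brush border peptidase, was at 0.235, 0.374 and 0.289 TPM in isoform 12 and 8.01, 9.31 and 8.06 TPM in isoform 11, a difference of -2.86 ± 0.103. RBP2, the retinol carrier of enterocytes, was at 0.209 TPM in isoform 12 and 5.17 TPM ± 0.839 in isoform 10. CYP11A1, the enzyme that cuts the cholesterol side chain, was at 0.237 TPM in isoform 12 and 5.46 TPM ± 0.604 in isoform 11. From isoform 9, ANPEP differed by -0.35 (adjusted p = 0.0181) and CYP17A1 by 0.51 (adjusted p = 0.0386), and RBP2 and CYP11A1 did not pass the test. Parental means of these 5 genes were 0.164, 0.661, 0.158, 0.350 and 0.0861 TPM in the order given. Their isoform 12 means were under 1 TPM too, so they passed the filter only through lines where they were higher. Other lines had little room to lie below isoform 12 in these genes, so the direction of these calls carries no weight.

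KRT80 and KRT7 were called lower in isoform 12 than in isoforms 9 and 11, with no call against isoform 10. KRT80 was at 7.35 TPM ± 1.38 in isoform 12, 8.01 TPM ± 1.06 in isoform 10, 16.1 TPM ± 2.15 in isoform 11 and 21.9 TPM ± 1.29 in isoform 9. The differences were -0.12, -1.04 and -1.47, each ± 0.154, and the latter 2 were called. KRT7 was at 1.73 TPM in isoform 12, 1.87 TPM in isoform 10, 6.10 TPM in isoform 11 and 6.18 TPM in isoform 9, with differences of -0.07, -1.37 and -1.38, each ± 0.119. ICAM1 was called lower than in isoform 9, by 1.11 ± 0.171, at 2.16 against 5.82 TPM.

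Genes of 1 stretch of chromosome 11 were higher in isoform 12 than in parental cells and lower than parental in the like lines. HBE1, the embryonic beta-like globin, and the olfactory receptor genes OR51B4 and OR51B5 have overlapping or adjacent models on the minus strand between 5268345 and 5505652. Reads of shared exons cannot be assigned to 1 of them with certainty. OR51B5 had 3.87, 3.98 and 4.23 TPM in parental cells, 11.7, 16.0 and 12.4 TPM in isoform 12, and means of 0.808, 1.27 and 0.0503 TPM in isoforms 10, 11 and 9. HBE1 had 5.31, 8.92 and 8.81 TPM in parental cells and 14.9, 18.6 and 15.8 TPM in isoform 12, a difference of 1.03 ± 0.183 that fell under the minimum without isoform 12 replicate 2 (0.94) or without parental replicate 1 (0.82). The groups labelled isoforms 4 and 5, whose HNF4A signal lay in each other's row, had the highest means, 31.3 and 19.3 TPM for OR51B5 and 43.8 and 26.7 TPM for HBE1. A mean below the parental one was not particular to the like lines. In isoforms 1, 2, 3, 6, 7 and 8 the means were 0.693 to 2.45 TPM for OR51B5 and 0.910 to 5.12 TPM for HBE1.

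**Figure D4:**
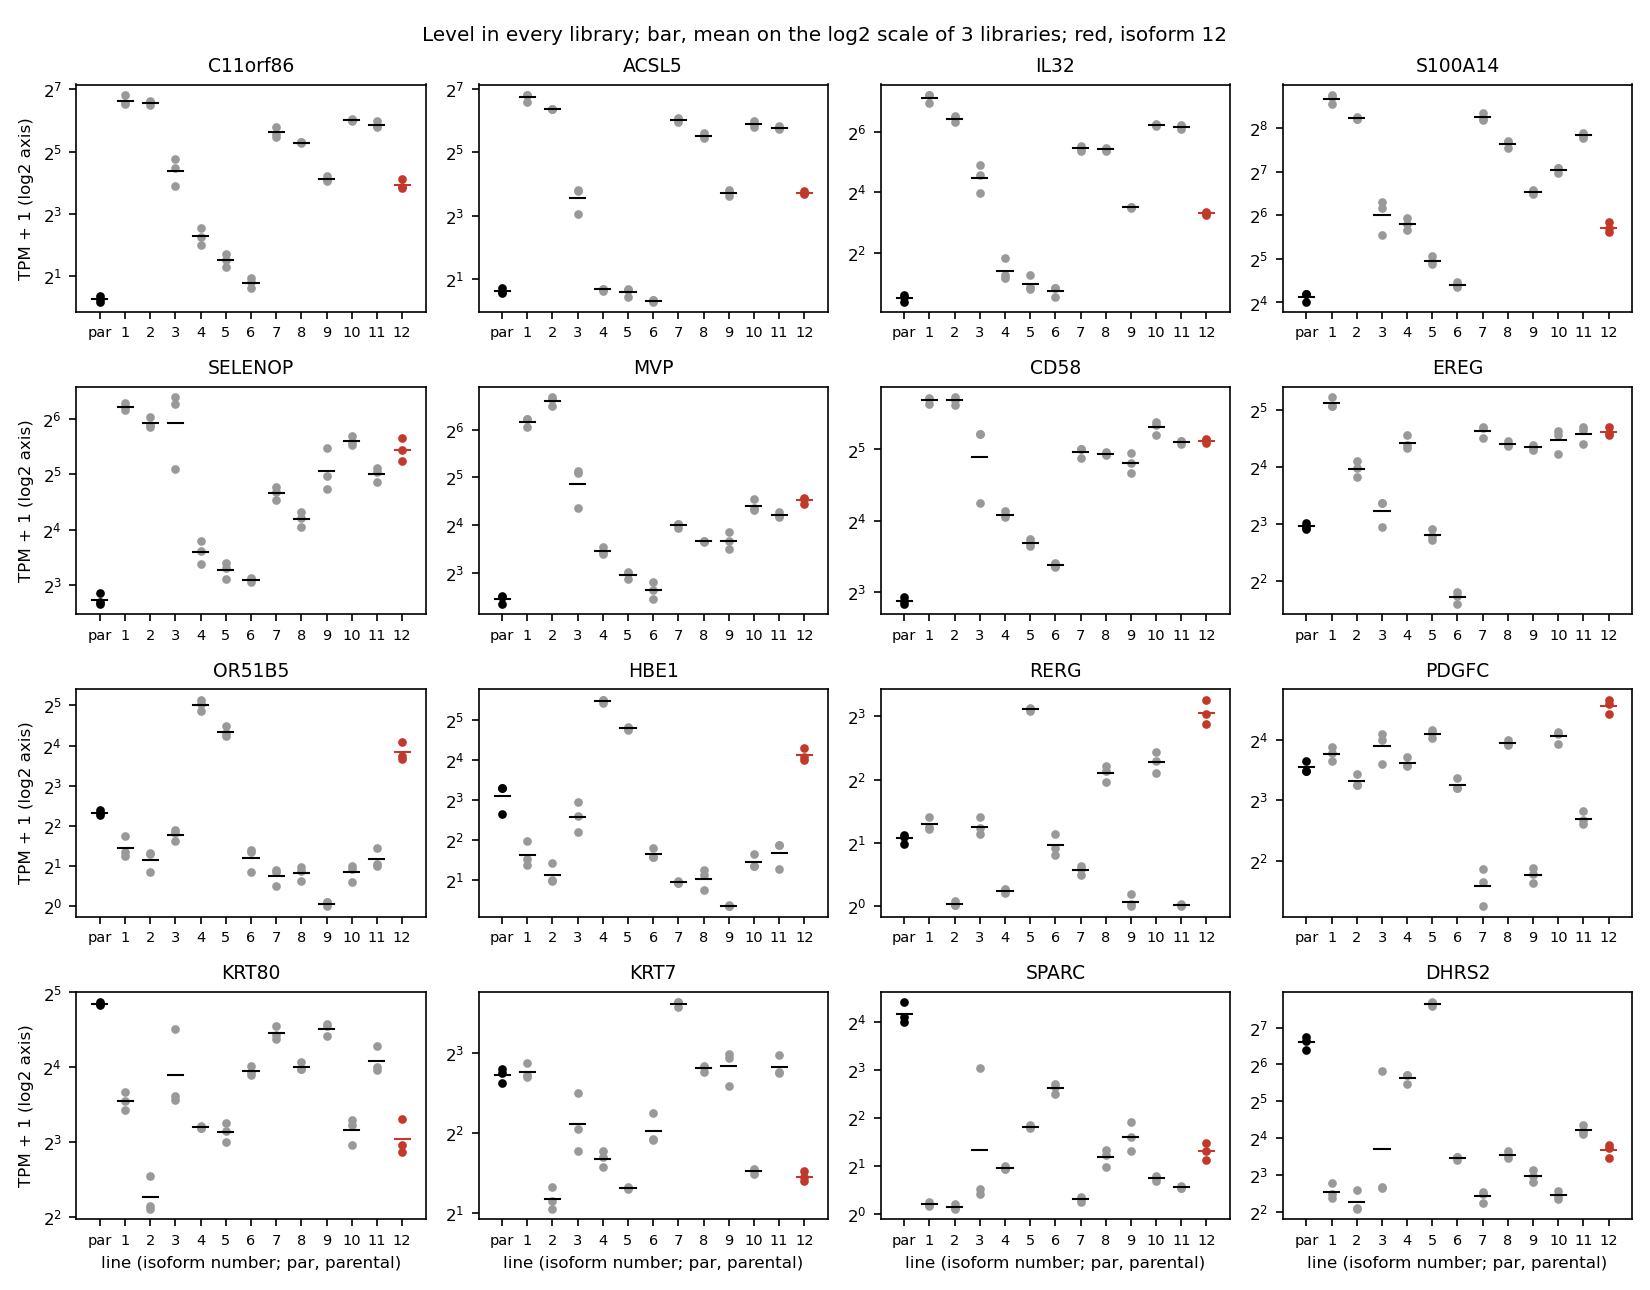
TPM + 1 (log2 axis) of 16 genes in every library of the parental cells (par) and the lines of isoforms 1 to 12; points are libraries, bars are means on the log2 scale and isoform 12 is red. IL32 and ACSL5 in isoform 12 lie near isoform 9 and below isoforms 10 and 11. OR51B5 and HBE1 are high in isoform 12 and in the groups labelled isoforms 4 and 5 (whose HNF4A rows go against their labels). In isoforms 9, 10 and 11 both genes lie below the parental level, and so do their means in isoforms 1, 2, 3, 6, 7 and 8.

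Across the 12 lines isoform 12 seldom held the extreme level of its called genes. Its mean was the highest of the 12 lines for HEIH, SCML1 and PDGFC, and the lowest for LOC105378665 (3.89 TPM ± 3.04). That row was called lower than in parental cells but not without isoform 12 replicate 2 (adjusted p = 0.0712) or parental replicate 3 (adjusted p = 0.0601). For HEIH, a long non-coding RNA, that mean was 30.1 TPM ± 1.33 against 29.6 TPM ± 1.87 in isoform 11, a difference of 0.03 ± 0.0761 that did not pass the test. SCML1, a Polycomb-like protein, was at 7.56 TPM ± 0.817 in isoform 12 and 6.25 TPM ± 1.13 in isoform 10, a difference of 0.25 ± 0.152 that did not pass. PDGFC was at 22.7 TPM ± 1.97 in isoform 12, and the next group was the one labelled isoform 5 with 16.2 TPM ± 0.785. For C11orf86, IL32 and APOBEC1 isoform 12 was the 9th of the 12 lines, for ACSL5 the 7th and for CIDEC and S100A14 the 10th, with isoform 1 highest in each of these 6 genes. Isoform 1 had 98.8 TPM of C11orf86, 104.9 TPM of ACSL5, 139.3 TPM of IL32, 46.0 TPM of APOBEC1, 91.1 TPM of CIDEC and 407.8 TPM of S100A14.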

How the data were processed

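Poly(A)-enriched, strand-keeping RNA-seq libraries of 13 groups were quantified by the authors, who deposited 1 table of 45446 rows per group with TPM for each library. The submitters' processing notes name Trimmomatic 0.36, FastQC 0.11.5, kallisto 0.44.0, DESeq2 1.22.2 and GRCh38.p12. The isoform 12 table also holds, per the file headers, the authors' mean of normalised counts (a signal), log2 fold change and its SE, the statistic (a score), and raw and adjusted p-values of their test against parental cells. These deposited columns entered no fit. Abundance of near-identical transcripts is estimated jointly, so copies of a gene can exchange reads. Column sums were 999973 to 999988, and TPM does not give depth; over the table, normalised counts averaged by the authors total 54215297.

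The rows HNF4A1 to HNF4A12 were left out, and 108 rows with repeated names were kept. Genes whose mean TPM across the 39 libraries was 1 or more were tested on log2(TPM + 1) with limma 3.58.1 in R 4.3.3 (trend), all libraries in 1 fit with 26 residual degrees of freedom. On simulated data with known changes the fit was tested before use. Coordinates are those of GENCODE 29 (GRCh38). Named genes are the 15 largest rises and 10 largest falls among the called, called list members, up to 4 other members per list, and the 5 largest differences each way in the direct contrasts; further genes were chosen after their values were seen, and a few genes are not reported here. Members and lists were chosen with earlier results of these data known. Alternatives were the pseudocount, filters, scaling, minimum fold, the libraries in the fit, a replicate block and leaving out each library.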

Additional observations from a re-analysis of the deposited data

Results flagged for a closer look

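Some genes lay on opposite sides of the parental level in isoform 12 and in a like line. Each was called between isoform 12 and parental cells and between isoform 12 and the other line. Every library of the other line also lay beyond every parental library, on the side opposite to isoform 12. The direct contrast of the lines, given here on the log2(TPM + 1) scale, is the test of each difference. The genes of the HBE1 stretch were higher than parental in isoform 12 and lower in isoforms 10, 11 and 9. Their means were below parental in isoforms 1, 2, 3, 6, 7 and 8 too. OR51B5 differed by 2.99, 2.66 and 3.76, HBE1 by 2.67, 2.44 and 3.77, and OR51B4 by 2.40, 1.90 and 2.69, against isoforms 10, 11 and 9 in that order. RERG was higher than parental in isoform 12 and lower in isoforms 11 and 9, with differences of 3.04 and 2.98. IGF2BP3 did the same, with 2.41 and 2.05, and PDGFC with 1.86 and 2.80. FMN1, an actin nucleator, differed by 1.69 between isoforms 12 and 9. LOC105374060 was lower than parental in isoform 12 and higher in isoform 9, a difference of -1.37. Each line is 1 line, so isoform and line cannot be told apart for any of these genes.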

How the results depend on the processing

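Against parental cells, a pseudocount of 0.1 gave 151 calls (108 higher, 43 lower) and a pseudocount of 5 gave 30 (22 higher, 8 lower). A filter at 5 TPM gave 55 (8 lower). A minimum of 1.5-fold gave 271 (178 higher, 93 lower) and no minimum 2185 (1187 higher, 998 lower). Under the same settings in that order (pseudocounts 0.1 and 5, 5 TPM, 1.5-fold, no minimum) the calls were 123, 30, 46, 266 and 2670 against isoform 10, 286, 50, 91, 586 and 4496 against isoform 11, and 188, 26, 44, 324 and 2501 against isoform 9. Without each library in turn the calls were 77 to 89 against parental (57 to 67 higher, 20 to 24 lower), 76 to 86 against isoform 10, 135 to 163 against isoform 11 and 82 to 95 against isoform 9. No filter, other scaling, a filter on the compared groups, fits without isoform 3 and fits of the compared groups alone kept all 4 counts within 1.5 times. Called members lost with a pseudocount of 5 included CLRN3, HKDC1, CIDEC, PRAP1, APOBEC1, VIL1, LGALS4, CAVIN2, KRT7 and ICAM1, whose levels are low. LOC105379273 also lost its call in the fit of the 2 groups alone (adjusted p = 0.139). None of the 32 genes followed against parental cells under these alternatives (22 of them with the filter at 5 TPM) changed direction, and the other genes named were not followed.

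With the replicate number as a block, and without the groups labelled isoforms 4 and 5, whose labels give no usable number, 86 genes were called against parental (84 of the 85 kept), 78 against isoform 10, 149 against isoform 11 and 83 against isoform 9. LOC105379273 lost its call under the block (adjusted p = 0.0536). Deviations of same-numbered isoform 12 and parental libraries correlated at 0.187, 0.0939 and 0.0775 across genes, so the numbers were not taken to pair the samples, although each library correlated best with its own number. Depth cannot be read from TPM, so no count limit could be given for genes listed at 0.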
